A study of Homo sapiens with 192 samples.

Results

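Wnt signalling keeps the stem cells at the base of the intestinal crypt dividing. A set of 10 genes, made up of Wnt targets and crypt stem cell genes, was followed here: LGR5, ASCL2, AXIN2, EPHB2, RNF43, ZNRF3, NKD1, NOTUM, SMOC2 and OLFM4. They were taken by symbol from the 58243 Ensembl identifiers of the count data, each matched 1 identifier, and all 10 were among the 19387 genes tested. HT29, LS513, HCT116 and LS174T are established human CRC (colorectal cancer) cell lines, and each was grown without drug treatment in 2D and in 3D, with 3 RNA-seq libraries per line and growth condition (24 libraries in 8 groups). HT29 and LS513 are described by the study as microsatellite stable and HCT116 and LS174T as microsatellite instable. HCT116 was kept in McCoy medium and the other lines in DMEM, all with serum, and 3D growth is described as spheroids on a surface that cells do not attach to. Each line was cultured on its own with no crypt, stroma or immune cells described, so each pair of groups compares growth conditions of 1 line. Whether the cells of a line are uniform was not tested. The labels do not say whether the 3 libraries came from separate cultures, so p-values measure the spread between these libraries, which may be technical. In bulk RNA, fewer cells of a kind and less RNA per cell cannot be told apart.

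In the canonical Wnt pathway a Wnt ligand binds a Frizzled receptor with LRP5 or LRP6, the destruction complex of APC, AXIN and kinases is held back, and beta-catenin enters the nucleus and activates genes with TCF/LEF factors. R-spondins bind LGR4, LGR5 or LGR6 and remove the ubiquitin ligases RNF43 and ZNRF3, which otherwise clear Frizzled from the cell surface. Several targets of the pathway are its own brakes, among them AXIN2 in the destruction complex, NKD1, which binds Dishevelled, RNF43 and ZNRF3 themselves, and NOTUM, a secreted enzyme that removes the lipid from Wnt ligands. ASCL2 is a transcription factor of crypt stem cells, EPHB2 a receptor that positions cells along the crypt, and SMOC2 and OLFM4 encode secreted proteins used as crypt stem cell markers.

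The RefSeq promoter table for GRCh38.p14 held 4 of the 10 genes, EPHB2, RNF43, SMOC2 and OLFM4. They are shown because OLFM4 and SMOC2 were both far higher in LS174T than in the other lines and changed in opposite directions in 3D, EPHB2 differed strongly between lines, and RNF43 was abundant in all 4 lines. Each sequence is the 250 bases before the annotated start, 5′ to 3′ on the strand of the gene, in lower case, with capitals for any match on either strand to the TCF/LEF core, searched as CTTTGA and in its other form as CTTTGT, or to the E-box CAGCTG (the kind of site bound by basic helix-loop-helix factors such as ASCL2). OLFM4 lies at chr13:53028563-53028812 on the plus strand, RNF43 at chr17:58417535-58417784 on the minus strand, SMOC2 at chr6:168440934-168441183 on the plus strand and EPHB2 at chr1:22710588-22710837 on the plus strand.
OLFM4: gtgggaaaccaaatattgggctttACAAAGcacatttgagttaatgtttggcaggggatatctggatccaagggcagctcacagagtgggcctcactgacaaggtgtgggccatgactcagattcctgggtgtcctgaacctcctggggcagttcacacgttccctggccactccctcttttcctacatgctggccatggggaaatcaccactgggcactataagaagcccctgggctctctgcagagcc
RNF43: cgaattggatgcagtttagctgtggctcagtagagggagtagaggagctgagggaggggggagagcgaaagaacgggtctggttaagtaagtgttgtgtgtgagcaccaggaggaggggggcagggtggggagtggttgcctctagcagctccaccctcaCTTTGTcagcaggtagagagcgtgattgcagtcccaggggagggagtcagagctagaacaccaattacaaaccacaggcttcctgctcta
SMOC2: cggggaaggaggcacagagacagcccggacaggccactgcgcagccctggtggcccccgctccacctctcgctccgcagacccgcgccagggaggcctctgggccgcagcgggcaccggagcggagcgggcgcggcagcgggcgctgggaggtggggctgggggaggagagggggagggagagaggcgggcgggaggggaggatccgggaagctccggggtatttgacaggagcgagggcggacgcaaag
EPHB2: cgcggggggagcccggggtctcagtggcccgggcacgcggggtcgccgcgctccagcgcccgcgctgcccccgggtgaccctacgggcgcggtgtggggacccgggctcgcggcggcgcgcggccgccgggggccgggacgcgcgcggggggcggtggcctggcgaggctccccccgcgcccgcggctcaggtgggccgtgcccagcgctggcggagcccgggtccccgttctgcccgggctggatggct
The letters CTTTGT were found once before OLFM4, as their reverse complement (ACAAAG) starting 226 bases before the start, and once before RNF43, starting 90 bases before it. A second RNF43 start, at chr17:58402722-58402971 on the minus strand, also held 1 match, and no match was found before SMOC2 or EPHB2. CTTTGT or its complement was present in 13.7% of the 35116 windows of the table, CTTTGA in 11.2% and CAGCTG in 14.0%, and neither of the last 2 was in any of these windows. The windows also differed in composition, with 84.8% G and C and 42 CG pairs before EPHB2, 75.2% and 24 before SMOC2, 56.0% and 4 before RNF43 and 54.0% and 1 before OLFM4, against a median of 58.0% and 11 over the table. A match is a description of these letters alone.

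Library totals were between 18723942 and 34277421 counts (median 30777613), so that the floor of 3 counts used for detection is between 0.0875 and 0.160 CPM (counts relative to all counts of the library, on a common scale). The epithelial markers EPCAM, CDH1, KRT8, KRT18, KRT19, KRT20, CDX1, CDX2, VIL1 and LGALS4 summed to between 3574 and 18359 CPM in every library, while 5 of 7 fibroblast genes (COL1A2, COL3A1, DCN, LUM and PDGFRA) and, of 6 leukocyte genes, PTPRC and CD3E stayed at or under 3 counts in every library. The fibroblast list summed to between 10.2 and 22.1 CPM in HCT116, nearly all from COL1A1, and to at most 1.15 CPM in the other lines. Of the leukocyte list, CD68 rose in 3D in all 4 lines (means of 19.3 and 78.0 CPM in LS513), and CD14 rose in HT29. LYZ, which is also a Paneth cell gene, rose in HT29 (from 1373 to 2550 CPM), LS513 (1.99 to 4.09 CPM) and LS174T (2.05 to 3.54 CPM). The LS174T call of LYZ ended without replicate 2 of its 3D group (adjusted p = 0.12 in edgeR). The part of these in the changes of the 10 genes was not tested. One library stood apart, replicate 2 of LS174T grown in 3D, and values without it are given below for the 10 genes in LS174T and for every named gene whose LS174T call ended without it. Mean levels are given with their SD (n = 3) in TMM-scaled CPM, growth effects are log2 of 3D over 2D from the edgeR quasi-likelihood fit of all 24 libraries, and a gene is said to have risen or fallen where its Benjamini-Hochberg adjusted p was under 0.05. With 3 libraries against 3, an exact permutation test of 1 gene cannot give a p below 0.1.

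The first question is where the 10 genes were expressed at all. Only 6 of the 10 genes, AXIN2, EPHB2, RNF43, ZNRF3, NKD1 and NOTUM, exceeded 3 counts in every library of all 8 groups, and 4 did so when each library had to reach 10 counts, or 1 CPM. HCT116 lacked the rest: LGR5, ASCL2, SMOC2 and OLFM4 had between 0 and 2 counts in each of its 6 libraries. In HT29, SMOC2 and OLFM4 were likewise at 2 counts or fewer. LS174T and LS513 expressed all 10 above the floor in at least 1 growth condition.

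Per kilobase of exon, the scale on which genes can be compared, ASCL2 was highest in LS513 grown in 2D (89.6 ± 2.58 CPM per kb), followed by AXIN2 (44.9 ± 1.29), RNF43 (31.0 ± 1.08) and EPHB2 (29.8 ± 0.871). In LS174T grown in 2D ASCL2 also led (59.8 ± 4.17 CPM per kb), ahead of AXIN2 (39.4 ± 2.30), EPHB2 (35.8 ± 1.87), SMOC2 (27.9 ± 2.63), RNF43 (27.1 ± 0.221) and OLFM4 (26.0 ± 10.9). HT29 grown in 2D had a different order, with RNF43 (32.4 ± 2.24 CPM per kb), AXIN2 (16.7 ± 0.678) and ZNRF3 (15.2 ± 0.526) at the top and EPHB2 at 0.140 ± 0.0345. HCT116 grown in 2D had RNF43 at 16.2 ± 1.49 CPM per kb, AXIN2 at 4.50 ± 0.421, EPHB2 at 3.60 ± 0.302 and ZNRF3 at 3.35 ± 0.361. LGR5 was highest in LS174T, at 6.11 ± 0.566 CPM per kb, below the 6 genes named for that line, and in HT29 it was at 2.10 CPM per kb, above ASCL2 (0.816) and EPHB2. NOTUM was at most 1.07 ± 0.414 CPM per kb in 2D, in HCT116.

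Between lines in 2D, all 10 genes passed the test for LS513 against HCT116 and for HCT116 against LS174T, where 68.3% and 68.3% of all tested genes did. For HT29 against HCT116 it was 8 of 10 (68.8% of all), the exceptions being SMOC2 and OLFM4, at the floor in both. The remaining pairs gave 7 of 10 each, for HT29 against LS513 (60.6% of all), HT29 against LS174T (64.6%) and LS513 against LS174T (57.6%). Genes that did not pass in those 3 pairs were LGR5, RNF43 and ZNRF3 in the first, RNF43, ZNRF3 and NOTUM in the second, and AXIN2, EPHB2 and RNF43 in the third. The counts of 7 and 8 are close to the shares of all genes, which also differed widely between lines.

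**Figure D1:**
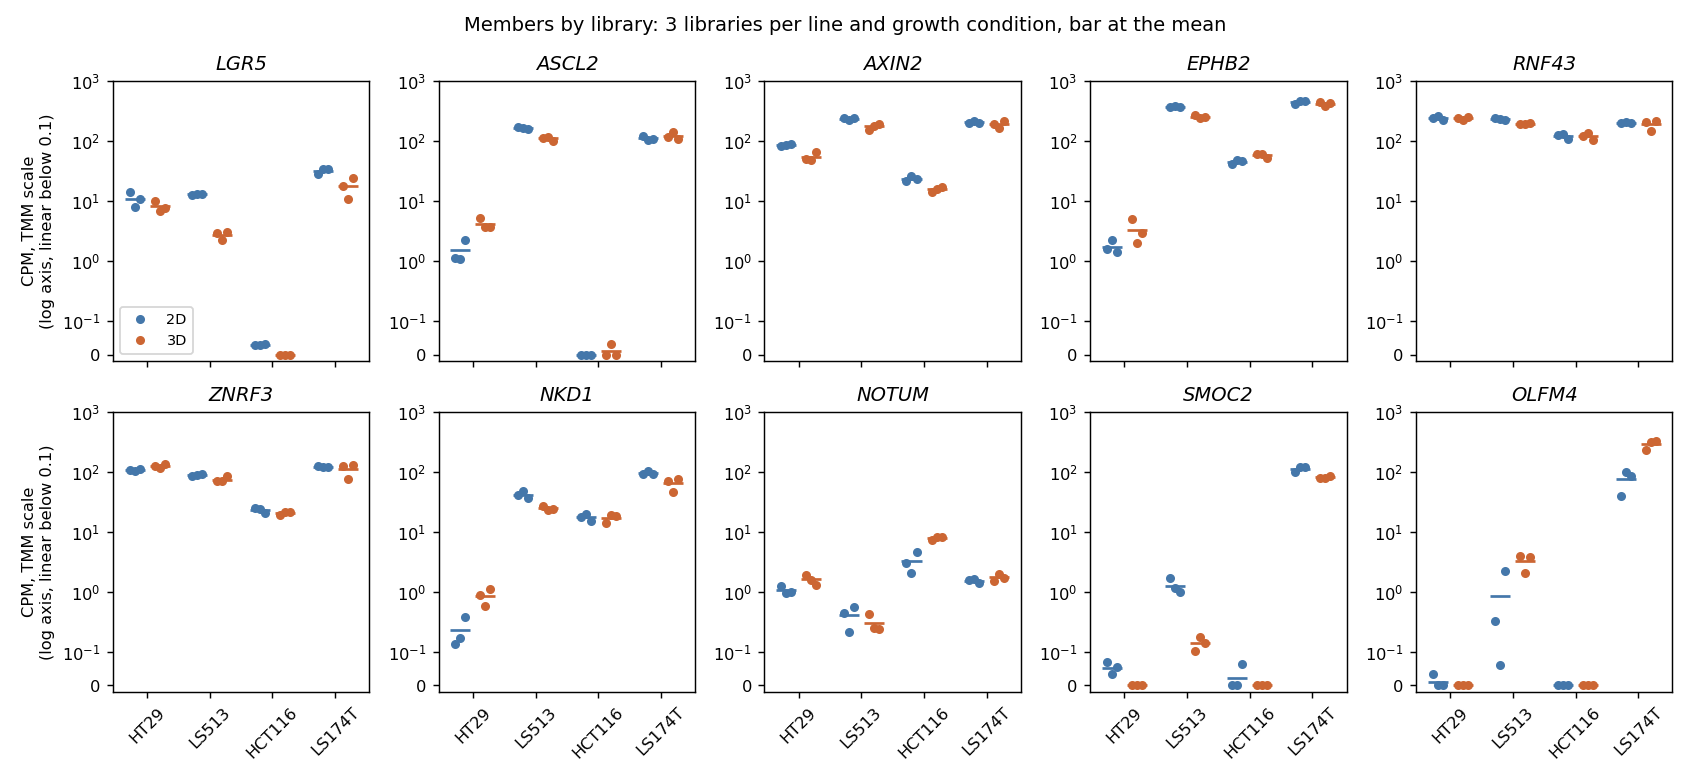
Level of each of the 10 genes in every library, in CPM on the TMM scale (vertical axis logarithmic above 0.1 and linear below it), for the 4 lines grown in 2D (blue) and 3D (orange), with a bar at the mean of the 3 libraries. LGR5, ASCL2, SMOC2 and OLFM4 lie at or next to 0 in HCT116, and RNF43 stays between 103 and 261 CPM in all 24 libraries.

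LGR5, the R-spondin receptor that marks crypt stem cells, was highest in LS174T. Its levels in 2D were 28.7, 33.8 and 33.9 CPM in LS174T, 12.9, 13.1 and 13.2 CPM in LS513 and 14.1, 7.95 and 11.0 CPM in HT29, and each HCT116 library had 1 count. HT29 and LS513 did not pass the test against each other (adjusted p = 0.37), LS174T was above both (adjusted p = 3.4e-06 and 3e-05), and LS174T was at least 353-fold above HCT116, taking the floor of 3 counts per library for HCT116.

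In 3D, LGR5 fell in LS513 to 2.92, 2.27 and 3.12 CPM, a difference of -2.23 ± 0.25 (log2, SE, adjusted p = 1.3e-06), or 4.70-fold lower, with no overlap of the libraries. In LS174T it fell to 17.9, 10.8 and 24.6 CPM, -0.85 ± 0.22 (adjusted p = 0.0088), with every 3D library below every 2D library. Without replicate 2 of LS174T grown in 3D that difference was -0.59 ± 0.19 (adjusted p = 0.054), no longer past the threshold, and it also missed it (adjusted p = 0.078) when the LS174T libraries were fitted alone. HT29 gave 10.2, 6.95 and 7.73 CPM in 3D, overlapping its 2D libraries (-0.41 ± 0.23, adjusted p = 0.17). The 2 other receptors of the family behaved differently: LGR4 did not pass the test in any line, with 2D means from 14.0 CPM in HCT116 to 62.1 CPM in LS174T, and LGR6, highest in HT29 at 79.8 ± 30.8 CPM, rose only in LS513 among the 4 tests (0.79 ± 0.25, adjusted p = 0.025), with overlapping libraries. Their ligands RSPO1, RSPO2 and RSPO3 had 3 counts or fewer in every library, and RSPO4 was above that in HCT116, at 0.427 CPM in 2D and 0.772 CPM in 3D (adjusted p = 0.17).

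ASCL2 separated the lines into 3 levels. It reached 171, 165 and 162 CPM in LS513 and 119, 105 and 108 CPM in LS174T grown in 2D, 1.13, 1.10 and 2.30 CPM in HT29, and 0 counts in all 3 HCT116 libraries. LS513 was above LS174T by 0.58 ± 0.15 on the log2 scale (adjusted p = 0.0018) and at least 1822-fold above HCT116 at the floor of 3 counts.

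The growth effect on ASCL2 ran in opposite directions. In HT29 it rose to 5.31, 3.77 and 3.66 CPM in 3D (1.57 ± 0.22, adjusted p = 1.1e-05, 2.98-fold), whereas in LS513 it fell to 114, 117 and 102 CPM (-0.58 ± 0.15, adjusted p = 0.0066). Neither pair of groups overlapped. LS174T, at 119, 143 and 108 CPM in 3D, overlapped its 2D libraries (0.16 ± 0.15, adjusted p = 0.48), and the highest of these was replicate 2. Even after the increase, HT29 in 3D stayed far below LS513 and LS174T, at 4.25 ± 0.921 against 111 ± 8.22 and 123 ± 17.9 CPM.

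AXIN2, a negative regulator that is itself a widely used readout of beta-catenin activity, fell in 3 of the 4 lines. In HT29 it went from 83.9, 87.2 and 91 CPM in 2D to 50.8, 47.6 and 65.8 CPM in 3D (-0.67 ± 0.12, adjusted p = 0.0001). In HCT116 it went from 21.6, 25.9 and 23.0 CPM to 14.2, 16 and 17.3 CPM (-0.57 ± 0.12, adjusted p = 0.0013). LS513 showed a smaller decrease, from 239, 227 and 238 CPM to 153, 181 and 194 CPM (-0.42 ± 0.12, adjusted p = 0.011), which missed the threshold without replicate 1 of LS513 grown in 3D (-0.33 ± 0.13, adjusted p = 0.08). The libraries of these 3 lines did not overlap between growth conditions. LS174T had 202, 220 and 197 CPM in 2D and 195, 167 and 219 CPM in 3D (-0.09 ± 0.12, adjusted p = 0.63, 95% interval of the difference -0.32 to 0.14).

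The growth effect on AXIN2 did not pass the test for a difference between lines (adjusted p = 0.055), but it did without replicate 2 of LS174T grown in 3D (adjusted p = 0.012). AXIN2 lies on chromosome 17 at 65528563 to 65561647 (GRCh38, minus strand), and 25.2% of its exonic bases are shared on the same strand with AC004805.1, a gene annotated as protein coding that received 171 to 2853 counts per library. Reads in those 1316 shared bases can have been split between both genes or left uncounted.

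NKD1, the Dishevelled-binding antagonist, had one of the largest spans between lines. In 2D it measured 91.9, 104 and 91.1 CPM in LS174T, 41.8, 47.1 and 36.5 CPM in LS513, 17.6, 19.8 and 15.4 CPM in HCT116 and 0.137, 0.172 and 0.384 CPM in HT29, where the counts were 4, 5 and 7. All 6 pairs of lines passed the test, and LS174T was 445-fold above HT29.

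In 3D, NKD1 rose in HT29 to 0.875, 0.588 and 1.12 CPM (29, 17 and 31 counts), 2.01 ± 0.43 (adjusted p = 0.00073), and fell in LS513 to 27.2, 23.5 and 23.9 CPM, -0.75 ± 0.17 (adjusted p = 0.0023). HCT116 was at 13.8, 18.9 and 18.7 CPM in 3D, overlapping 2D (-0.04 ± 0.17, adjusted p = 0.93). It also fell in LS174T, to 69.3, 45.8 and 76.7 CPM (-0.58 ± 0.17, adjusted p = 0.016), but that call ended without replicate 2 of LS174T grown in 3D (-0.38 ± 0.15, adjusted p = 0.1) or without replicate 2 of LS174T grown in 2D (-0.52 ± 0.19, adjusted p = 0.069). NKD1 has 17425 exonic bases, the most of the 10 genes, and with the trend on exonic length removed from each library its LS174T difference was -0.26 ± 0.12 (adjusted p = 0.14), while HT29 (2.38 ± 0.34, adjusted p = 8.9e-06) and LS513 (-0.56 ± 0.13, adjusted p = 0.0019) still passed.

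NOTUM was low in every line, with group means from 0.305 to 7.81 CPM, and was the only one of the 10 genes with its highest level in HCT116. HCT116 rose from 3.08, 2.07 and 4.56 CPM in 2D to 7.31, 8.07 and 8.06 CPM in 3D (1.27 ± 0.23, adjusted p = 0.00027, 2.42-fold), without overlap. HT29, with 1.23, 0.964 and 0.986 CPM in 2D and 1.93, 1.59 and 1.31 CPM in 3D, missed the threshold (0.60 ± 0.28, adjusted p = 0.096) although its libraries did not overlap. LS174T (0.20 ± 0.26, adjusted p = 0.63) and LS513 (-0.42 ± 0.40, adjusted p = 0.5) overlapped, and LS513 had only 7 to 18 counts per library.

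RNF43 and ZNRF3, the ligases that remove Frizzled, were the most even of the set. RNF43 lay between 103 and 261 CPM in all 24 libraries, with 2D means of 243 ± 16.8 CPM in HT29, 233 ± 8.10 in LS513, 203 ± 1.66 in LS174T and 122 ± 11.2 in HCT116. HT29, LS513 and LS174T did not pass the test against each other, and each was above HCT116 (log2 difference 0.74 to 0.99). ZNRF3 had 2D means of 120 ± 2.14 CPM in LS174T, 106 ± 3.67 in HT29, 89.4 ± 3.46 in LS513 and 23.4 ± 2.51 in HCT116, and among the first 3 only LS513 against LS174T passed (adjusted p = 0.0082).

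Neither ligase passed the test for growth in any line with all 24 libraries fitted. RNF43 differed by -0.02 ± 0.11, -0.25 ± 0.11, -0.02 ± 0.11 and -0.09 ± 0.11 in HT29, LS513, HCT116 and LS174T, and the 95% intervals of these differences together span -0.47 to 0.20. ZNRF3 differed by 0.22 ± 0.13, -0.27 ± 0.13, -0.18 ± 0.14 and -0.12 ± 0.13 in the same order, with intervals that span -0.53 to 0.48. In HT29 the 3D libraries of ZNRF3 (123, 114 and 134 CPM) lay above those in 2D (107, 102 and 110 CPM), and with the length trend removed that difference passed (0.38 ± 0.10, adjusted p = 0.005). Without replicate 2 of LS174T grown in 3D it passed as well (0.26 ± 0.09, adjusted p = 0.018), and in LS513 both ligases were then called lower, RNF43 at -0.25 ± 0.09 (adjusted p = 0.032) and ZNRF3 at -0.27 ± 0.09 (adjusted p = 0.021). With only the libraries of the line fitted the adjusted p was 0.031 for ZNRF3 in HT29, and 0.011 for RNF43 and 0.036 for ZNRF3 in LS513. RNF43, on chromosome 17 at 58352500 to 58417595 (minus strand), shares 59.5% of its exonic bases on the same strand with other annotated genes, mostly AC004687.2, which has no identifier in the count data. Among genes that were counted, SUPT4H1 shares 143 bases with it on that strand. The level of RNF43 could differ under an annotation that includes AC004687.2.

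EPHB2 was abundant in LS174T (421, 461 and 461 CPM in 2D) and LS513 (363, 385 and 372 CPM), lower in HCT116 (41.0, 48.4 and 45.9 CPM) and close to absent in HT29 (1.58, 2.24 and 1.42 CPM). LS174T and LS513 did not differ past the threshold (adjusted p = 0.14), and LS174T was 251-fold above HT29. In 3D it fell in LS513 to 267, 246 and 256 CPM (-0.54 ± 0.15, adjusted p = 0.011). That call was lost without replicate 2 of LS513 grown in 3D (-0.52 ± 0.18, adjusted p = 0.052) and with the length trend removed (-0.38 ± 0.15, adjusted p = 0.072).

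In HT29 EPHB2 rose to 5.10, 2.04 and 2.97 CPM in 3D (0.94 ± 0.23, adjusted p = 0.0023), with 1 of the 3D libraries inside the range of the 2D libraries. HCT116 had 62.2, 59.9 and 53.0 CPM in 3D, all above its 2D libraries, and did not pass (0.37 ± 0.15, adjusted p = 0.074). LS174T overlapped (-0.09 ± 0.15, adjusted p = 0.7). EPHB2 has 12516 exonic bases, and with the length trend removed the HCT116 difference was 0.52 ± 0.16 (adjusted p = 0.015).

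SMOC2 and OLFM4, the secreted markers, were carried by LS174T and went in opposite directions there. SMOC2 was at 100.1, 118 and 119 CPM in LS174T grown in 2D and fell to 78.8, 77.2 and 85.6 CPM in 3D (-0.48 ± 0.14, adjusted p = 0.019), without overlap. This call depended on single libraries: the adjusted p was 0.075 or 0.081 without replicate 2 or 3 of the 2D group and 0.056 or 0.052 without replicate 1 or 2 of the 3D group, at differences of -0.44 to -0.46. OLFM4 rose from 39.7, 99.8 and 86.3 CPM to 227, 315 and 330 CPM (1.95 ± 0.45, adjusted p = 0.0086, 3.86-fold), and without replicate 2 of LS174T grown in 3D it was 1.89 (adjusted p = 0.046). With the test of DESeq2 in place of edgeR the OLFM4 difference was 1.96 ± 1.02 (adjusted p = 0.14).

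In LS513 the levels of both were far lower, 1.27 ± 0.361 CPM for SMOC2 and 0.856 ± 1.16 CPM for OLFM4 in 2D, which placed LS174T 88.5-fold and 88.2-fold higher. The OLFM4 fold rests on 1 library of LS513: without replicate 3 of its 2D group the LS513 mean was 0.191 CPM and the fold 392. SMOC2 fell in LS513 from 1.67, 1.15 and 0.982 CPM (52, 38 and 31 counts) to 0.106, 0.178 and 0.139 CPM (3, 5 and 4 counts), -3.13 ± 0.33 (adjusted p = 1.6e-06). OLFM4 had 0.322, 0.0604 and 2.19 CPM in 2D (10, 2 and 69 counts) and 3.98, 2.10 and 3.74 CPM in 3D, with the highest 2D library above the lowest 3D library, and did not pass (1.94 ± 0.68, adjusted p = 0.056). Leaving out replicate 3 of LS513 grown in 2D, the library with 69 counts, gave 4.10 ± 0.67 (adjusted p = 0.00066). SMOC2 in HT29 passed the test with 2, 1 and 1 counts in 2D and 0 in 3D, all at or under the floor, so no fold is given for it.

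Counted over the 10 genes, HT29 had 3 that rose (21.1% of all tested genes did) and 2 that fell (19.6% of all), of which SMOC2 was at the floor. LS513 had none that rose (13.7% of all) and 6 that fell (9.9% of all): LGR5, SMOC2, NKD1, ASCL2, EPHB2 and AXIN2. The number in LS513 that fell was 5 without replicate 1 or without replicate 2 of its 3D group, and 8, with RNF43 and ZNRF3 added, without replicate 2 of LS174T grown in 3D or with only the LS513 libraries fitted. In these last 2 fits 12.9% of all tested genes and 2602 of 15133 tested genes fell in LS513. HCT116 had 1 that rose (16.8% of all), NOTUM, and 1 that fell (12.3% of all), AXIN2, with 4 of the 10 at the floor. LS174T had OLFM4 as the 1 that rose (13.1% of all) and LGR5, NKD1 and SMOC2 as the 3 that fell (9.15% of all). Without replicate 2 of its 3D group OLFM4 alone passed, where only 7.05% of all tested genes rose and 3.46% fell in LS174T. Without replicate 2 of its 2D group 2 of the 10 passed. For HT29, LS513, HCT116 and LS174T the median log2 difference of the 10 genes was 0.10, -0.48, -0.03 and -0.09, beside medians of 0.00, 0.00, 0.01 and 0.02 over all tested genes. The medians of the 10 include genes at the floor, SMOC2 and OLFM4 in HT29 and 4 genes in HCT116, with 2 counts or fewer per library. In HT29 the differences of SMOC2 and OLFM4 were negative. No gene of the 10 passed in the same direction in all 4 lines. AXIN2 and SMOC2 each fell in 3, SMOC2 with its HT29 libraries at the floor.

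**Figure D2:**
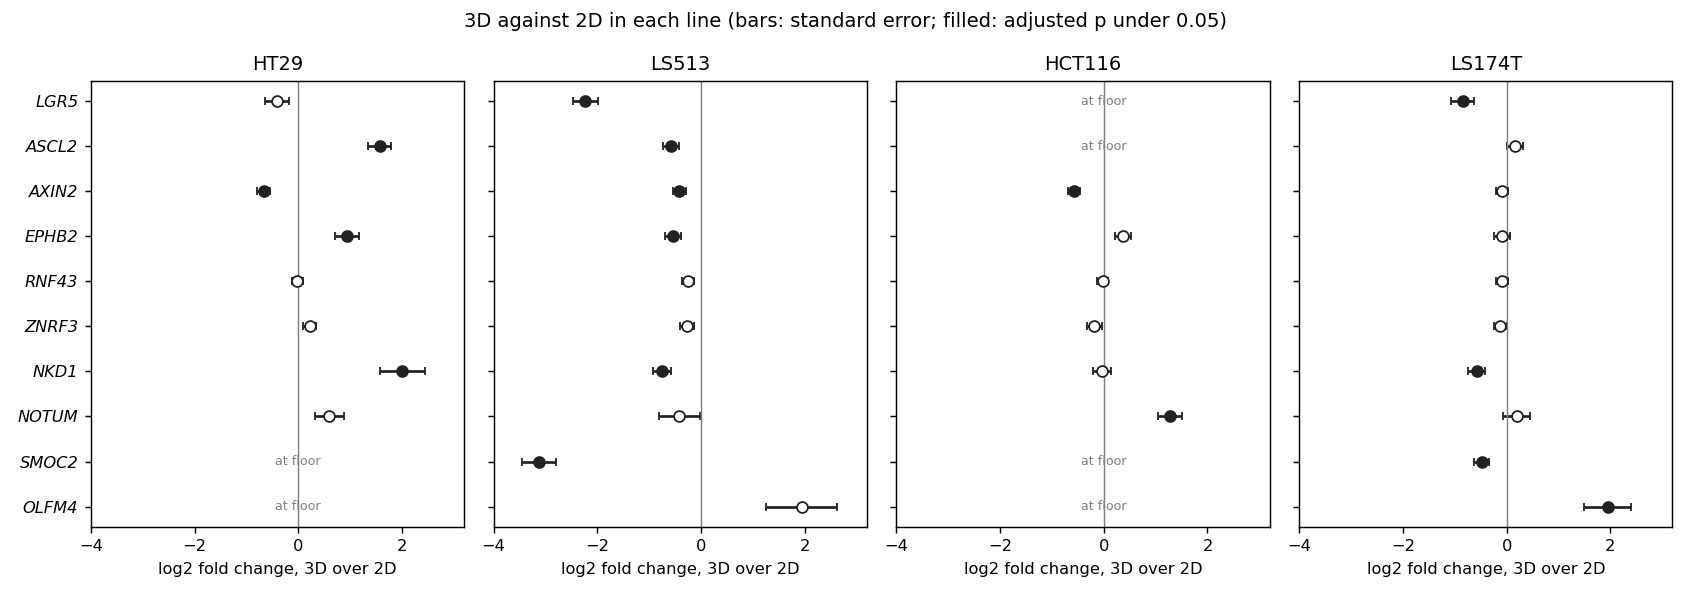
Growth effect of each of the 10 genes in each line, as log2 of 3D over 2D with its standard error from the edgeR fit of 24 libraries; filled points have an adjusted p under 0.05, and "at floor" marks genes with 3 counts or fewer in all 6 libraries of the line. LS513 has 6 filled points, all below 0, whereas in HT29 ASCL2, NKD1 and EPHB2 are filled above 0.

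Whether the growth effect differed between lines was tested directly by the interaction term, which 6 of the 10 genes passed (17.1% of all tested genes). ASCL2 (adjusted p = 4.7e-05), NKD1 (0.00056 adjusted) and EPHB2 (0.0013 adjusted) rose in HT29 and fell in LS513. SMOC2 (0.0002 adjusted) and LGR5 (0.0024 adjusted) fell in LS513 by more than in LS174T, and NOTUM (0.03 adjusted) rose in HCT116. As ASCL2 and LGR5 were at the floor in HCT116, they were tested again over the other 3 lines, with adjusted p = 2.8e-05 and 0.0016, and SMOC2 over LS513 and LS174T alone, with adjusted p = 0.00026. Of the others, LGR5 also passed between LS513 and LS174T alone (adjusted p = 0.018), whereas ASCL2 (0.055), EPHB2 (0.32) and NKD1 (0.84), which had risen in HT29, did not. NOTUM without HCT116 gave an adjusted p of 0.34. Adjusted p-values of AXIN2 (0.055), ZNRF3 (0.22), RNF43 (0.64) and OLFM4 (0.99) did not pass, and that of ZNRF3 was 0.0072 without replicate 2 of LS174T grown in 3D.

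Replicate 2 of LS174T grown in 3D had the lowest LGR5, AXIN2, EPHB2, RNF43, ZNRF3, NKD1 and SMOC2 of its group and the highest ASCL2 and NOTUM. ZNRF3 was 76.8 CPM there against 126 and 128 CPM in the other 2 libraries, and RNF43 148 CPM against 210 and 213 CPM. The same library had the highest sum of the 10 goblet cell genes, 3395 CPM against 2342 and 1831 CPM, and 32.9 CPM of the R-spondins with LGR4 and LGR6, against 62.2 and 76.0 CPM. Its difference from the other 2 libraries of the group fell with exonic length across the 14584 genes with at least 1 CPM on average (Spearman's rho -0.44, across genes, which are not independent replicates). By the same measure rho was -0.47 for replicate 3 of HCT116 grown in 2D and 0.46 for replicate 3 of LS174T grown in 3D. Such a trend was thus not particular to replicate 2 of LS174T grown in 3D. The 3 libraries of this group were also the most variable of the 8 groups. Their chi-square per degree of freedom, as a median over genes, was 10.3, against 2.13 to 5.96 in the others. Without this library the LS174T differences of the genes that had not passed were 0.05 ± 0.14 for ASCL2, 0.02 ± 0.12 for AXIN2, -0.02 ± 0.16 for EPHB2, 0.07 ± 0.10 for RNF43, 0.09 ± 0.10 for ZNRF3 and 0.10 ± 0.29 for NOTUM, and none passed (adjusted p from 0.62 to 1). The part of these differences in the results for LS174T was not tested beyond leaving the library out.

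**Figure D3:**
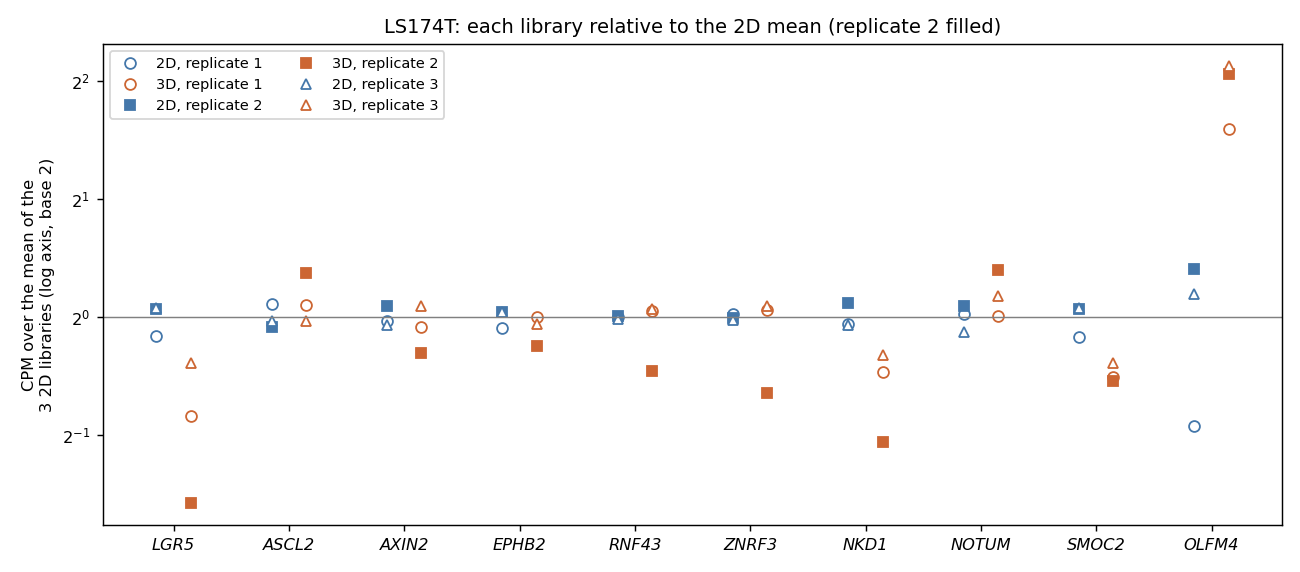
The 6 libraries of LS174T, each gene's CPM divided by the mean of the 3 2D libraries (logarithmic axis, base 2), with replicate 2 of each growth condition filled. In 3D, replicate 2 lies below the other 2 libraries for LGR5, AXIN2, EPHB2, RNF43, ZNRF3 and NKD1, whereas OLFM4 is above the 2D libraries in all 3.

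The growth effect was lower for longer transcripts in all 4 lines: across the same 14584 genes, HT29 gave a rho between growth effect and exonic length of -0.29, LS513 one of -0.22, HCT116 one of -0.24 and LS174T one of -0.36. Trends of this size were also seen within groups. Single libraries against the other 2 of their group gave rho from -0.47 (replicate 3 of HCT116 grown in 2D) to 0.46 (replicate 3 of LS174T grown in 3D). The cause of these trends was not tested. The 10 genes range from 1852 exonic bases for ASCL2 to 17425 for NKD1. With a smooth trend on length removed from each library, 6, 5, 3 and 3 of the 10 passed in HT29, LS513, HCT116 and LS174T. In that fit 7688, 4883, 5778 and 3903 of all 19387 tested genes passed. The decrease of AXIN2 was -0.61 ± 0.11 in HT29, -0.39 ± 0.11 in LS513 and -0.53 ± 0.11 in HCT116 in that fit, with adjusted p of 9.6e-05, 0.0087 and 0.001. LGR5 in LS513 was -2.20 ± 0.24 and in LS174T -0.82 ± 0.21.

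Among the other genes of the pathway and the crypt, 105 of 123 listed were tested, and those that passed were split between both directions: 22 rose and 23 fell in HT29, 17 and 19 in LS513, 11 and 6 in HCT116, and 13 and 11 in LS174T (9 and 4 without replicate 2 of LS174T grown in 3D). Their median log2 difference was 0.00, -0.03, 0.01 and 0.00. The shares that rose or fell in all genes are those given above for each line. Of the 4 that passed in the same direction in every line, only CHD8 and JUN did so without replicate 2 of LS174T grown in 3D. AMER1, a partner of APC at the membrane, fell by 0.61, 0.88, 0.88 and 0.73 on the log2 scale in HT29, LS513, HCT116 and LS174T, the last no longer past the threshold without that library (-0.43 ± 0.16, adjusted p = 0.09). CHD8, a chromatin remodeler that binds beta-catenin, fell by 0.55, 0.31, 0.34 and 0.41. TLE5, a shortened member of the Groucho corepressors, rose by 0.83, 0.34, 0.60 and 0.39 (LS174T 0.26 ± 0.10 without it, adjusted p = 0.11), and JUN rose by 1.34, 0.79, 1.33 and 2.09.

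Of the ligands, 14 of 19 were tested. WNT4 rose in HT29 (0.183 to 1.11 CPM, 2.66 ± 0.46), HCT116 (1.24 ± 0.37) and LS174T (1.86 ± 0.35), WNT9A rose in HCT116 from 5.91 to 13.4 CPM, and WNT11 fell in HT29 from 126 to 84.0 CPM (-0.59 ± 0.20). WNT10A fell in HT29 (-0.85 ± 0.24) and rose in LS513 (0.77 ± 0.26). The ligand export genes PORCN and WLS both rose in HT29 (0.73 ± 0.13 and 0.55 ± 0.10), WLS in LS513 (0.46 ± 0.10) and PORCN in HCT116 (0.63 ± 0.13).

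Of the 14 receptors tested, 1 rose and 3 fell in HT29, 1 and 3 in LS513, 0 and 1 in HCT116, and 1 and 2 in LS174T, where 40.7%, 23.6%, 29.1% and 22.2% of all tested genes passed in either direction. Without replicate 2 of LS174T grown in 3D, LS174T had 1 that rose and 0 that fell (7.05% and 3.46% of all tested genes), and HT29 had 4 and 3 (24.5% and 19.6% of all). FZD7 rose in LS513 (0.67 ± 0.13) and LS174T (0.76 ± 0.14), ROR1 fell in HT29 (-1.28 ± 0.21) and LS513 (-1.33 ± 0.25), and LRP6 fell in HT29 (-0.64 ± 0.23) and LS174T (-0.70 ± 0.23, or -0.42 ± 0.22 without replicate 2 of LS174T grown in 3D, adjusted p = 0.24). Of the secreted antagonists and their receptors, DKK1, which blocks LRP6 and is itself a Wnt target, fell in HT29 from 22.0 ± 9.67 to 3.69 ± 0.687 CPM (-2.58 ± 0.24, adjusted p = 9.3e-08), stayed between 337 ± 46.2 and 405 ± 43.6 CPM in HCT116 (adjusted p = 0.36), and was at or under the floor in LS513. KREMEN1, which binds DKK1, rose in HT29 (0.89 ± 0.14).

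In the destruction complex, APC passed only in LS174T among the 4 lines (-0.59 ± 0.19, adjusted p = 0.031), a call that ended without replicate 2 of LS174T grown in 3D (-0.37 ± 0.18, adjusted p = 0.21), and AXIN1 rose in LS513 (0.35 ± 0.09). CTNNB1, which encodes beta-catenin, was highest in LS513 in 2D (987 ± 34.0 CPM), followed by LS174T (628 ± 43.5), HCT116 (408 ± 10.7) and HT29 (267 ± 8.66), and fell slightly in LS513 (-0.24 ± 0.08, adjusted p = 0.037) and LS174T (-0.24 ± 0.08, adjusted p = 0.043, or 0.15 without that library). The TCF/LEF factors differed between the lines, with TCF7L2 highest in HCT116 (123 ± 16.3 CPM), TCF7 highest in LS513 (117 ± 2.78 CPM) and LEF1 at 53.5 ± 0.760 CPM in LS513 and between 0 and 0.0572 CPM on average in the others, in 2D. TCF7 fell in LS513 (-0.30 ± 0.09) and LS174T (-0.38 ± 0.09), and TCF7L2 in HT29 (-0.52 ± 0.11). CTNNBIP1, an inhibitor of the contact between beta-catenin and TCF, rose in HT29 (1.16 ± 0.16), HCT116 (0.80 ± 0.16) and LS174T (0.55 ± 0.16, or 0.48 ± 0.17 without that library, adjusted p = 0.075), and in LS513 was 0.41 ± 0.16 (adjusted p = 0.058). Of the 16 genes of this list, 4 rose and 4 fell in LS174T, and 1 and 2 without that library.

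Of 23 other Wnt targets, 7 rose and 5 fell in HT29, 3 and 7 in LS513, 2 and 0 in HCT116, and 4 and 1 in LS174T (3 and 1 without replicate 2 of LS174T grown in 3D). SP5 (1.68 ± 0.26) and CDX1 (2.82 ± 0.31) rose in HT29, and MMP7 fell there (-1.82 ± 0.25) and rose in HCT116 (2.36 ± 0.26). In LS513, PROX1 (-1.47 ± 0.26) and TDGF1 (-1.22 ± 0.24) fell and TNFRSF19 rose (1.02 ± 0.24). MYC rose in LS174T from 216 ± 6.06 to 347 ± 79.5 CPM (0.68 ± 0.13) and did not pass in the other 3 lines. Of 18 other crypt stem genes, 4 rose and 6 fell in HT29, 3 and 7 in LS513, 1 and 3 in HCT116, and 2 and 3 in LS174T (1 and 2 without it). RGMB (-1.68 ± 0.17) and CDCA7 (-1.28 ± 0.14) fell in LS513, CLU fell in HT29 (-2.87 ± 0.27) and LS174T (-0.86 ± 0.19), SMOC1, the relative of SMOC2, fell in LS174T (-1.76 ± 0.25), and PROM1 rose in HT29 (1.73 ± 0.23).

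**Figure D4:**
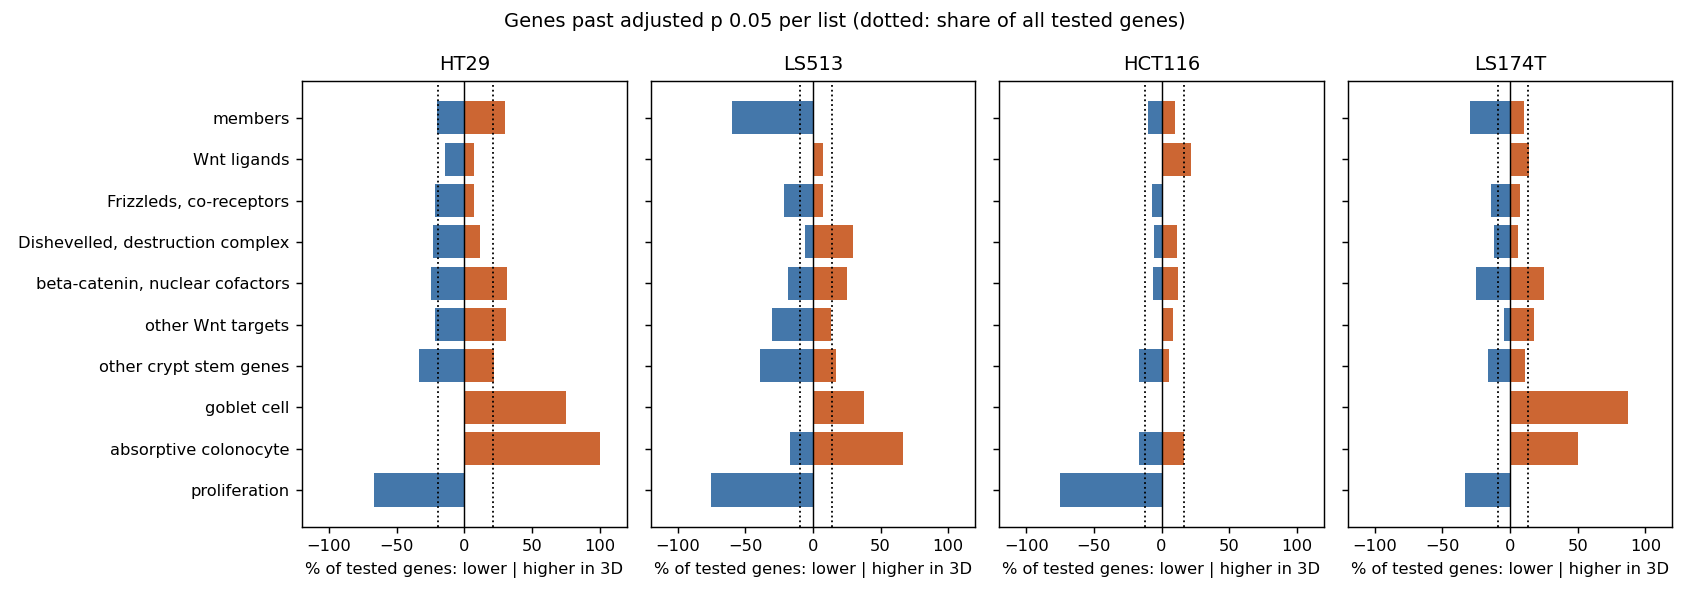
Share of the tested genes of each list that rose (orange, to the right) or fell (blue, to the left) in 3D, in percent, for each line, with dotted lines at the shares of all 19387 tested genes. Proliferation genes lie on the left in all 4 lines, and the 10 genes of the set (top bar, in HT29 with SMOC2 at the floor) have 6 of 10 on the left in LS513.

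Markers of differentiated cells and of cell division moved beside these genes. Proliferation genes fell in 8, 9, 9 and 4 of 12 in HT29, LS513, HCT116 and LS174T and rose in none, where 19.6%, 9.9%, 12.3% and 9.15% of all tested genes fell. Without replicate 2 of LS174T grown in 3D it was 8, 10, 12 and 3. In LS513 their summed level was 3436 to 3704 CPM in 2D and 2554 to 2906 CPM in 3D. In each other line, too, the sum was lower in every 3D library than in every 2D library. Of 6 tested absorptive colonocyte genes, 6 rose in HT29, 4 rose and 1 fell in LS513, 1 rose and 1 fell in HCT116 and 3 rose in LS174T (2 without replicate 2 of its 3D group). The absorptive sum went from between 575 and 713 CPM to between 2793 and 3775 CPM in LS513, where 6 crypt genes fell. It was also higher in 3D in HT29 (333 to 516, then 713 to 829 CPM), where ASCL2, NKD1 and EPHB2 rose. In LS174T it went from between 4.10 and 10.1 CPM to between 129 and 150 CPM. In HCT116 it was lower in 3D (85.3 to 87.2, then 48.5 to 61.0 CPM). KRT20, a marker of differentiated epithelium, rose by 1.54 ± 0.15 in LS513, 1.95 ± 0.26 in HCT116 and 3.93 ± 0.21 in LS174T. It was also among the 6 that rose in HT29, and GUCA2B was the 1 that fell in LS513 (-3.79 ± 0.80). Goblet cell genes rose in 6, 3, 0 and 7 of 8 tested (7 becomes 5 without replicate 2 of LS174T grown in 3D), and Paneth cell genes in 1, 1, 0 and 3 of 4 (3 becomes 2), among them DEFA5 in LS174T (0.159 to 13 CPM). PLA2G2A, the most abundant Paneth cell gene of LS174T, fell there from 41.7 to 26.0 CPM (-0.68 ± 0.22, adjusted p = 0.033), and the list summed to between 34.8 and 50.1 CPM in 2D and 32.7 and 63.2 CPM in 3D. Genes of hypoxia and glycolysis rose in 7, 9, 10 and 10 of 10. The part of any of these in the changes of the 10 genes was not tested.

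Across the 24 libraries, the 10 genes formed pairs by their profile over lines. On log2(CPM + 1), Pearson's r was 0.97 for EPHB2 with NKD1, 0.95 for SMOC2 with OLFM4, 0.93 for LGR5 with ZNRF3 and for ASCL2 with AXIN2, 0.92 for RNF43 with ZNRF3 and -0.82 for AXIN2 with NOTUM. The libraries fall into 4 lines, so these values describe the order of the lines and carry no test. The gene most like each by the same measure, among those with at least 1 CPM on average, was PBX3 for LGR5 (0.976), HEPH for ASCL2 (0.993), RPS6KA2 for EPHB2 (0.992), CBFA2T2 for RNF43 (0.958), PELI1 for ZNRF3 (0.984), SIPA1L2 for NKD1 (0.988), FAM71E1 for NOTUM (0.963), DMD for SMOC2 (0.996) and AC073174.1 for OLFM4 (0.990). For AXIN2 it was AC004805.1 (0.996), with which it shares exons, followed by GLS2 (0.984).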

How the data were processed

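Poly(A) RNA of the 24 libraries was sequenced from a strand-specific kit as single reads. According to the methods and the submitters' processing notes, the authors trimmed the reads with Trim Galore 0.4.1, aligned them with STAR, removed reads with several alignments and counted them per gene with HTSeq 0.5.3, whose options are not given in the sources used here. The deposited values are raw counts per Ensembl identifier. The notes name hg19 and the methods a later Ensembl release, and 57980 of 58243 identifiers matched GENCODE 29 (GRCh38), from which positions and exonic lengths were taken. The 8 technical replicates of a library were summed (7 for 1 library of HT29 grown in 3D, whose eighth was not analysed here). Between the technical replicates of a library, the median over genes of the chi-square per degree of freedom was 0.906 to 0.934.

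Genes were filtered with filterByExpr and fitted in edgeR 4.0.16 (TMM, robust quasi-likelihood, 1 coefficient per group, R 4.3.3), with two-sided Benjamini-Hochberg adjustment over 19387 genes. Alternatives were DESeq2 1.42.0 and its size factors, no filter, a replicate block, fits within a line, leaving out technical replicate d or any library, the fold cutoffs of the study (log2 under -0.5 or over 1.5) and, chosen after seeing the data, removal of the trend on exonic length, interaction tests over fewer lines and a count without genes at the floor. On simulated data for HT29, 191 of 200 changed genes were recovered (95.5%) of 18839 tested, with 8 false calls. The planted changes were 4-fold (98 recovered) or 2-fold (93 recovered), in genes well above the floor. Smaller changes, changes in genes near the floor and an outlying library were not simulated, so the rate does not cover them. The 10 genes and all lists were chosen with earlier results of these data known. Of each list, up to 2 genes called in each direction per line were named (a mean of 1 CPM or more in either group, libraries that did not overlap), besides CTNNB1, APC, TCF7L2, the R-spondins and LGR4, whose values are given regardless. LGR6, LEF1, the fibroblast and leukocyte genes at the floor and the genes that passed in all 4 lines were named after their values were seen. Counting error is the only error the floor of 3 counts covers.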

Additional observations from a re-analysis of the deposited data

Results flagged for a closer look

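The 3D effect of 6 of the 10 genes differed between the 4 lines in the interaction test of edgeR (Benjamini-Hochberg adjusted p), which 17.1% of all tested genes passed. ASCL2 (adjusted p = 4.7e-05) had log2 differences of 1.57 in HT29, -0.58 in LS513 and 0.16 in LS174T, and NKD1 (0.00056) had 2.01 in HT29 against -0.75 in LS513 and -0.58 in LS174T. The NKD1 value of HT29 starts from 4, 5 and 7 counts in 2D, and its LS174T call ended without replicate 2 of either growth condition. EPHB2 (0.0013) was 0.94 in HT29, 0.37 in HCT116, -0.09 in LS174T and -0.54 in LS513, and LGR5 (0.0024) was -2.23 in LS513 against -0.41 in HT29 and -0.85 in LS174T. SMOC2 (0.0002) was -3.13 in LS513 and -0.48 in LS174T, on very different levels. These 5 passed under each of the 30 alternatives over all 4 lines, and over LS513 and LS174T alone SMOC2 and LGR5 passed, whereas ASCL2 (0.055), EPHB2 (0.32) and NKD1 (0.84) did not. NOTUM (0.03), at 1.27 in HCT116 against -0.42 in LS513, passed under 21 of 30, with adjusted p-values from 0.0055 to 0.072.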

How the results depend on the processing

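No result reversed. With the study's fold cutoffs, 1 of the 10 genes was counted in HCT116, and 24, 14, 7 and 11 of the other pathway genes in HT29, LS513, HCT116 and LS174T. How many of all tested genes passed those cutoffs is not given here. With only the libraries of the line fitted, LS174T gave 2 of the 10 genes and 10 of the other pathway genes, and 1648 of all 16035 genes tested in that fit. Leaving out 1 library at a time gave 4 to 6, 5 to 8, 2 to 3 and 1 to 4 of the 10 genes in HT29, LS513, HCT116 and LS174T, and 34 to 51, 21 to 39, 13 to 25 and 13 to 32 of the others, with the lowest LS513 counts of 21 to 23 without replicate 1 or 2 of either growth condition and the lowest LS174T counts without replicate 2 of its 3D group (13) or its 2D group (15). The test of DESeq2 called 4, 6, 3 and 3 of the 10 genes. Of all genes it tested, it called 7972 of 19356, 5019 of 18228, 6032 of 18980 and 4883 of 17852. The cause of these changes was not tested beyond fewer libraries in the fit. Deviations of 2D and 3D libraries with equal replicate numbers had correlations of -0.21 to 0.22 across the tested genes. With 3 libraries per group and labels that do not say, these values cannot decide whether equal numbers mark cultures handled together. The replicate block gave 4, 7, 2 and 4 of the 10 genes, 33, 27, 16 and 19 of the others, and 5 in the interaction test. Of all 19387 tested genes it called 5415, 3635, 4614 and 3273 in HT29, LS513, HCT116 and LS174T. In HT29 it could pair only replicates 1 and 3, as the 2D group has replicates 1, 2 and 3 and the 3D group 1, 3 and 4. Among 1054 fold changes of single genes under alternatives, 993 kept direction and call, 14 lost and 18 gained the call, and 29, all uncalled, changed sign. At 3 counts in a library, LGR5, ASCL2, SMOC2 and OLFM4 were not detectable in HCT116 at this depth.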
